A study of Mus musculus with 4 samples.

Results

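The 31 genes described here encode the enzymes of the citric acid cycle and of pyruvate oxidation. They were chosen by gene symbol, from 52022 genes with a transcript in the data. The rule uses no measured value, although the list was drawn up with earlier results of these data known. All 31 had enough counts to be tested, among 15643 tested genes. By role they comprise 17 cycle enzymes and their malate-aspartate partners, 7 genes of pyruvate entry and of the pyruvate dehydrogenase complex, 4 pyruvate dehydrogenase kinases, and 3 genes for the phosphatases that oppose the kinases and their regulator.

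RNA was sequenced from brown adipose tissue (labelled iBAT) of male mice with a loss of ATF4 in brown fat (KO, 2 libraries) and of their wild-type counterparts (WT, 2 libraries). All animals, controls included, ate freely and had received a diet with 60% fat for 12 weeks. Age, strain, the deleted exons and the promoter that drove the deletion were not found in the labels. Nor do these say whether each library came from 1 animal, so p-values reflect the spread of these libraries, which may be technical. Library names carry a prefix whose meaning the labels do not give: S1 for WT 2 and KO 1, S2 for WT 1 and KO 2. Each prefix therefore holds 1 library of each genotype.

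In brown fat, the citric acid cycle oxidises acetyl-CoA from fatty acids and glucose and passes electrons to the respiratory chain, which the uncoupling protein lets run as heat. Pyruvate enters mitochondria through a carrier and is then either turned into acetyl-CoA by the pyruvate dehydrogenase complex or carboxylated to oxaloacetate, which refills the cycle. Kinases switch the complex off by phosphorylation, and phosphatases switch it back on.

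Totals were 25985367 to 34813870 estimated counts per library. Atf4, the targeted gene, stood at 29.2 CPM (counts scaled to library size) in the library labelled WT 1, 24.5 in KO 2, 107 in WT 2 and 24.97 in KO 1, so the library labelled WT 1 lay near the KO libraries (log2 fold change KO over WT -1.46, SE 0.57, edgeR adjusted p = 0.9999). Markers of skeletal muscle, 18 genes, summed to 49.96 and 68.4 CPM in the WT libraries (3 and 2 genes at 0) and to 3462 and 3088 CPM in KO 1 and KO 2 (none at 0), and 16 of them were higher in KO by edgeR. Brown adipocyte markers, 10 genes that include Ucp1, were all detected in every library and summed to 8550 to 10443 CPM. Ucp1 alone held 5562 to 7024 CPM of this, so the sum says little of the other markers. Dio2, Prdm16 and Zic1 had both KO libraries below both WT libraries (13.1% of all tested genes). Cox7a1 had both above (13.2%), the rest overlapped, and 0 of the 10 were called for genotype by edgeR. Macrophage markers were lowest in KO 1, at 94.996 CPM against 250 to 334 in the other libraries. White adipocyte markers summed to 167 CPM in KO 1 and 465 in KO 2, both below the WT libraries (824 in WT 1, 509 in WT 2). Singly, Lep, Mest, Nnat, Slc7a10 and Sncg had both KO libraries below both WT libraries (13.1% of all tested genes), and Npr3 did not. Of the 6 tested white adipocyte markers 0 were called for genotype by edgeR (median log2 fold change -1.04). In whole tissue, fewer cells of a type and less RNA per cell cannot be told apart.

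Measured per transcript length (TPM), the genes spanned from 1.52 TPM for the kinase Pdk3 to 1228 TPM for the pyruvate carrier subunit Mpc1 (means of 4 libraries). TPM were not rescaled between libraries, and protein genes of mitochondrial DNA took 38.4% of gene counts in KO 1. Those mitochondrial genes took 33.3% in the library labelled WT 1, 33.1% in WT 2 and 32.2% in KO 2. Mpc1 and Mdh2, the mitochondrial malate dehydrogenase, had the highest means (1228 and 1153 TPM). Next came Idh3g and Idh3b, the regulatory subunits of NAD-dependent isocitrate dehydrogenase (864 and 855 TPM), whose ranges over libraries overlapped. Citrate synthase, Cs, the entry step of the cycle, averaged 697 TPM. Kinases other than Pdk4 and Pdk2, and all 3 phosphatase genes, lay below 20 TPM in mean level. The plot of levels shows this order together with the library in which each gene was lowest. The sums include transcripts not annotated as protein-coding. Of Mdh2, 50.9% to 68.4% of TPM was on Mdh2-203, annotated for nonsense-mediated decay. Of Mpc2, 71.1% to 72.6% was on the processed transcript Mpc2-203, which has 3 exons.

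**Figure D1:**
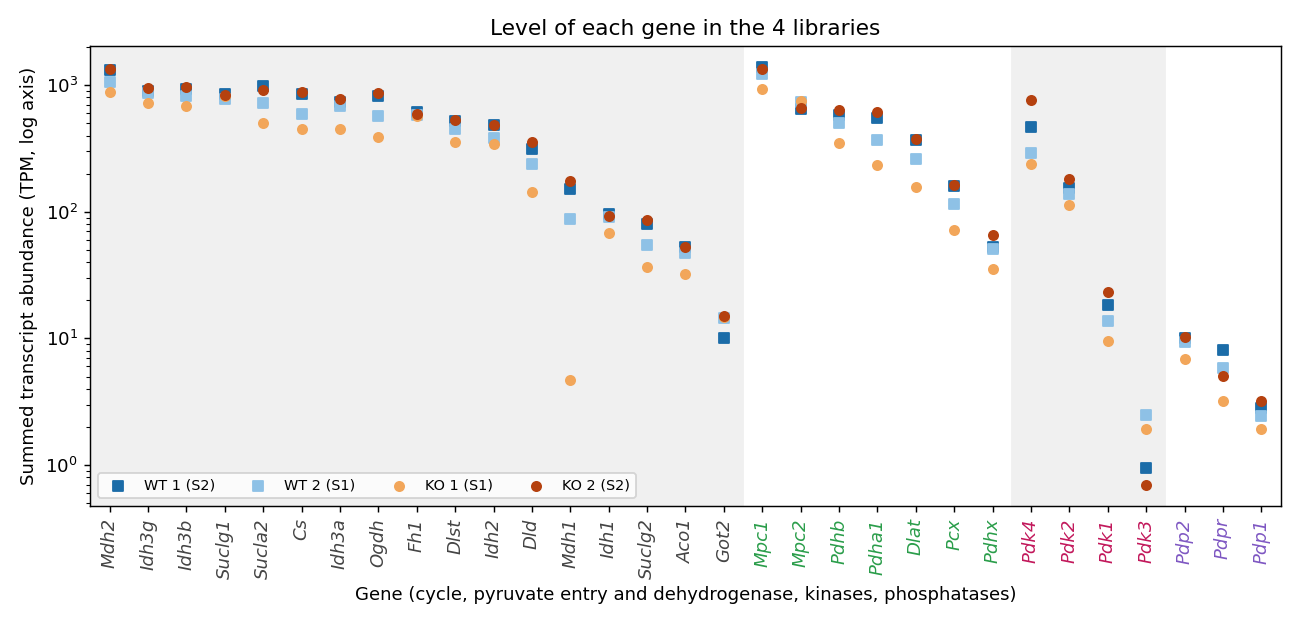
Level of each of the 31 genes in the 4 libraries, in summed TPM on a log axis. Squares are WT and circles KO, dark symbols prefix S2 and light symbols S1, and grey and white bands separate the 4 role groups. KO 1, the light circles, lies lowest for most cycle and dehydrogenase genes, and Mdh1 in KO 1 lies far below its other 3 libraries.

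The gene sums of Mdh1 and Got2 were also looked at by transcript. Of Mdh1, the cytosolic malate dehydrogenase, the full-length transcript of 9 exons received at most 0.86 TPM in any library, while a 6-exon transcript received 147 TPM in the library labelled WT 1, 165 in KO 2, 76.6 in WT 2 and 0 in KO 1. Got2, the mitochondrial aspartate aminotransferase, shares 1293 aligned bases at 99.1% identity with the pseudogene Got2-ps1. Another 1637 bases, at 98.8% identity, match the antisense strand of the non-coding gene Gm10874. Got2-ps1 received 0 counts in every library and Gm10874 at most 1, so almost no reads were assigned to these loci. The sum of Mdh1 rests on the shorter transcript and is uncertain. Got2 averaged 13.6 TPM, beside 1153 TPM for Mdh2, and whether reads of Got2 are missing from its sum was not tested. Without both genes, the medians and counts below were nearly unaltered: the other 29 had a median of 0.42 for S2 over S1 in log2 fold change, and 26 of them had both S2 libraries above both S1 libraries.

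The first comparison asked how the genes differed between KO and WT tissue. None of the 31 passed the test by edgeR (adjusted p under 0.05, 0.78% of all tested genes called), and 1 gene, Pdpr, was under 0.05 unadjusted (4.02% of all genes). DESeq2 and limma-voom likewise called 0 of the 31 (1.02% and 0.818% of all genes). Their median log2 fold change was -0.06, beside 0.00 for all tested genes, and 24 of 31 estimates were negative. Both KO libraries lay below both WT libraries for Pdk3 and Pdpr only (2 of 31, 13.1% of all genes), and above both for Got2 only (1 of 31, 13.2% of all genes).

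Role by role, the KO over WT estimates stayed near 0 with wide errors. The 17 cycle genes had a median of -0.06, the 7 pyruvate entry and dehydrogenase genes -0.06, the 4 kinases 0.13 and the 3 phosphatase genes -0.08 on the log2 scale. For Pdha1, the catalytic alpha subunit of pyruvate dehydrogenase, the estimate was -0.05 with an SE of 0.46. That error comes from the 2 libraries of each genotype standing far apart: KO 1 had 711 and KO 2 had 1649 CPM. Cs was at 1999.6 ± 606 CPM in WT and 1935 ± 740 CPM in KO (SD, n = 2 each), so the SD in either genotype was many times the difference of the means.

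The genotype difference was also read within each prefix. Within S1, KO 1 against WT 2, the 31 genes had a median difference of -0.16 in log2 CPM and 27 were lower in KO 1. Within S2, KO 2 against the library labelled WT 1, the median was 0.03 and 19 were higher in KO 2. All tested genes had medians of -0.01 and 0.00 in the same pairs. These are differences between single libraries and were given no test.

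Pdpr, the regulatory subunit that restrains pyruvate dehydrogenase phosphatase, was the member with the smallest p for genotype. It lies on chromosome 8 from 111094630 to 111137074 (GRCm38). Levels of Pdpr were 39.6 CPM in the library labelled WT 1, 24.1 in KO 2, 26.9 in WT 2 and 16.7 in KO 1. The KO libraries were both below the WT libraries, with a log2 fold change of -0.70 (SE 0.28, edgeR adjusted p = 0.9999). Unadjusted, this p was 0.0449 by edgeR. A block for the prefix left the estimate at -0.70 with an SE of 0.15, and Pdpr then passed the test (edgeR adjusted p = 0.0376). It was the 1 of 31 genes called in that fit, against 2.05% of all genes. The difference was -0.69 within S1 and -0.71 within S2. In the genotype fit the estimate was -0.40 without the library labelled WT 1 and -0.46 without KO 1. Since WT 1 had little Atf4, the direction rests on the labels of the libraries.

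Got2 was at 24.2 and 32.2 CPM in the WT libraries and at 39.7 and 34.3 CPM in the KO libraries. Its groups did not overlap, but the log2 fold change of 0.39 (SE 0.21) had an unadjusted edgeR p of 0.112, and 0.0234 (adjusted 0.386) with the prefix block. Pdk3 was the least abundant kinase, with 1.85 and 2.15 CPM in WT and 1.64 and 1.20 CPM in KO. Its estimate of -0.50 had an SE of 0.34 (edgeR adjusted p = 0.9999), at the lowest counts of the 31 genes.

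The second comparison asked how the same genes differed between the 2 prefixes, in a fit that also held genotype. Here most estimates shared a sign: 28 of 31 estimates were positive, with a median log2 fold change of 0.42 for S2 over S1, beside -0.01 for all tested genes. Both S2 libraries lay above both S1 libraries for 27 of 31 genes, where 27.3% of all tested genes did so. Only Mpc2 had both S2 libraries below both S1 libraries (1 of 31, 25.9% of all genes). Pdk4, Pdk1 and Suclg2 passed the test and rose from S1 to S2 by edgeR (3 of 31, against 1.63% of all genes called in that direction and 3.22% in either). At an unadjusted p under 0.05, 16 of 31 were higher in S2, where 10.2% of all genes were, and 0 were lower.

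**Figure D2:**
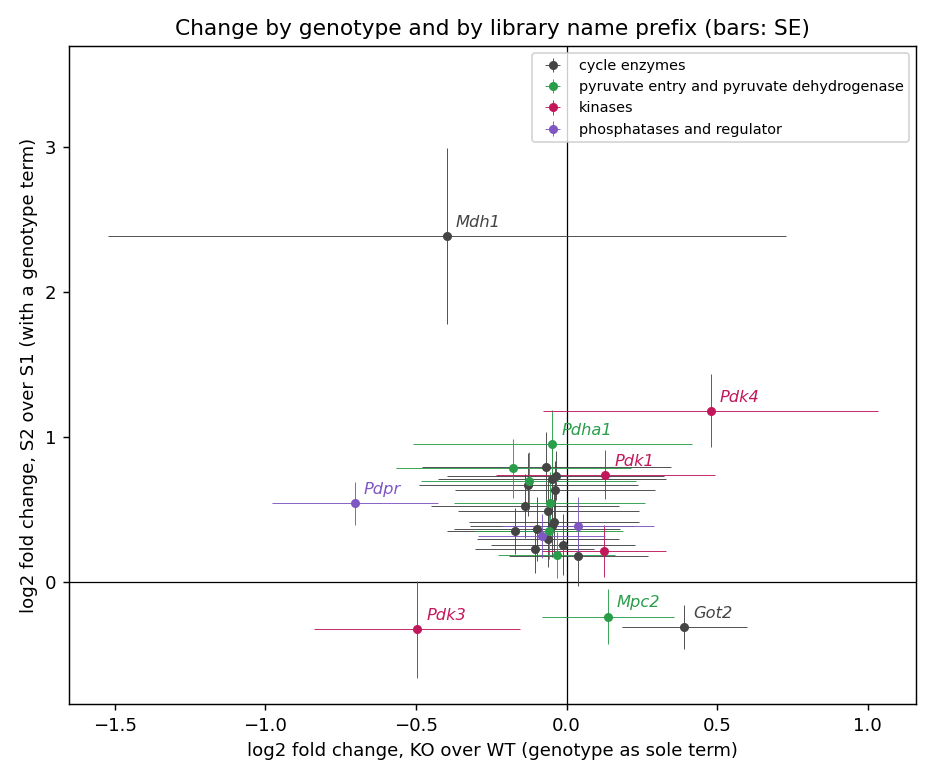
Log2 fold change of each gene for KO over WT (horizontal axis, genotype as sole term) and for S2 over S1 (vertical axis, with a genotype term), with bars of 1 SE, coloured by role. Most genes lie within 0.2 of 0 for genotype and above 0 for the prefix, with Mdh1, Pdk4 and Pdha1 the highest and Mpc2, Got2 and Pdk3 below 0.

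The shift was present in either genotype. Between the WT libraries, S2 minus S1 had a median of 0.35 over the 31 genes, with 28 positive, and between the KO libraries a median of 0.52, with 28 positive. All tested genes had medians of 0.00 and -0.01 in these pairs. KO 1 alone held the lowest value of 26 of the 31 genes, or 83.9%, where it held the lowest value of 34.9% of all tested genes. With KO 1 left out and the prefix as the sole term, the median of the S2 over S1 change was 0.37. Genotype was not held in that fit, which set the S2 libraries of both genotypes against a lone WT library. The value therefore mixes prefix with genotype.

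The significance of single genes depended on the model. With 4 libraries and both terms, 1 residual degree of freedom remains and the p-value rests largely on variation pooled over genes. With the prefix as the sole term edgeR called 0 of 31 genes and 0.00639% of all genes. At an unadjusted edgeR p under 0.05 that fit held 21 of the 31, and 2417 of all 15643 tested genes. Pdk4, Pdk1 and Suclg2 were not called when genes needed at least 1 CPM in 2 libraries (0 of 31, 2.69% of all genes). DESeq2 called 10 of the 30 genes to which it gave an adjusted p (3.23% of all genes).

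**Figure D3:**
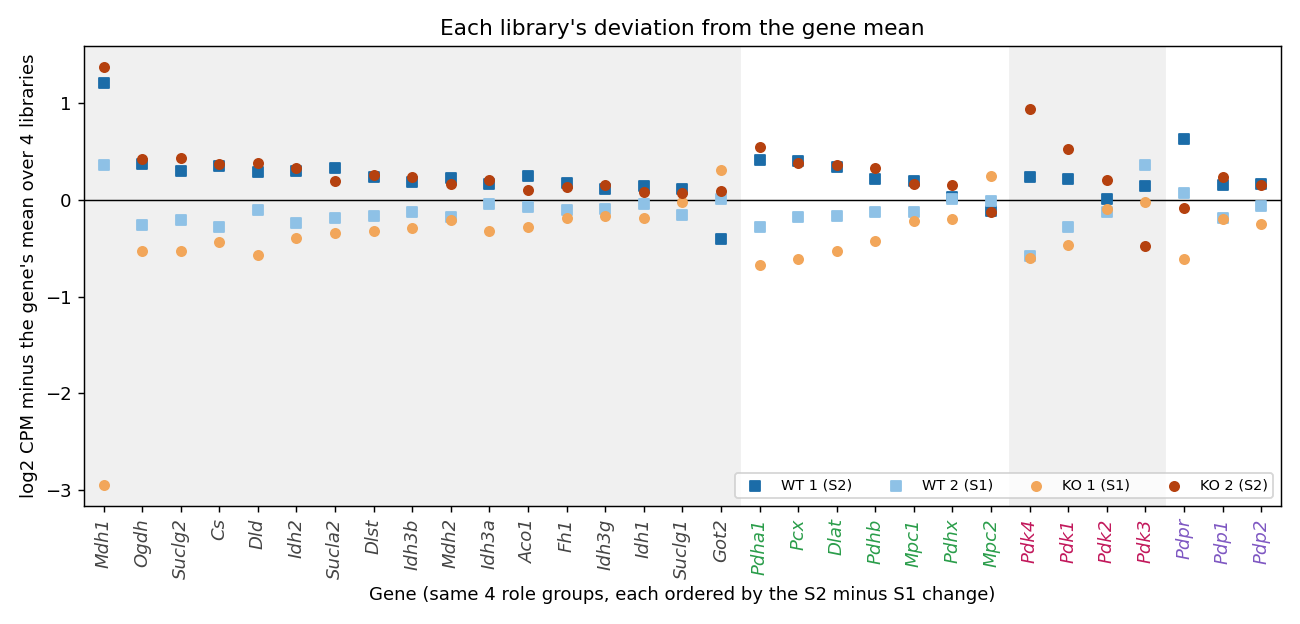
Deviation of each library from the gene's mean, in log2 CPM, for the 31 genes by role group. Dark symbols (S2) lie above light symbols (S1) for 27 genes, and the light circles (KO 1) are lowest for 26.

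Among the early steps of the cycle, 3 of the enzymes that make and oxidise citrate and isocitrate were under an unadjusted p of 0.05, and none passed the adjusted test. Cs was at 2428 CPM in the library labelled WT 1, 2458 in KO 2, 1571 in WT 2 and 1412 in KO 1. The S2 libraries were close to each other and well above the S1 libraries, a log2 fold change of 0.71 (SE 0.23, edgeR adjusted p = 0.125). Idh2, the NADP-dependent mitochondrial isocitrate dehydrogenase, was at 667 and 683 CPM in S2 and at 458 and 413 CPM in S1 (0.63, SE 0.20, edgeR adjusted p = 0.118). Aco1, the cytosolic aconitase that doubles as an iron sensor, differed less, with 186 and 168 CPM in S2 against 149 and 129 CPM in S1 (0.35, SE 0.16, edgeR adjusted p = 0.245). The cytosolic Idh1 and the 3 subunits of NAD-dependent isocitrate dehydrogenase, Idh3a, Idh3b and Idh3g, had S2 over S1 estimates of 0.22 to 0.42 with unadjusted p of 0.0803 to 0.245.

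The 2-oxoglutarate dehydrogenase complex turns 2-oxoglutarate into succinyl-CoA with the subunits Ogdh, Dlst and Dld, the last shared with pyruvate dehydrogenase. Ogdh was the most abundant of these genes in counts, with 3288 CPM in the library labelled WT 1, 3410 in KO 2, 2125 in WT 2 and 1757 in KO 1 (S2 over S1 0.79, SE 0.24, edgeR adjusted p = 0.11). Dld was at 700 and 746 CPM in S2 and at 534 and 385 CPM in S1 (0.67, SE 0.22, adjusted p = 0.126). Dlst had 1272 and 1284 CPM in S2 against 963 and 860.5 CPM in S1 (0.49, SE 0.21, adjusted p = 0.239). All 3 subunits were lowest in KO 1 and highest in KO 2, and none passed the adjusted test.

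Succinyl-CoA ligase, which makes a nucleoside triphosphate at this step, contains Suclg1 with either the ADP-forming Sucla2 or the GDP-forming Suclg2. Suclg2 lies on chromosome 6 from 95473009 to 95718800. It stood at 176 CPM in the library labelled WT 1, 194 in KO 2, 124 in WT 2 and 99.1 in KO 1. The gene rose from S1 to S2 by 0.73 on the log2 scale (SE 0.17, edgeR adjusted p = 0.0476), the one cycle enzyme to pass. Sucla2, far more abundant at a mean of 781 TPM against 64.6 TPM, was at 1765 and 1616 CPM in S2 and at 1238 and 1113 CPM in S1 (0.53, SE 0.22, edgeR adjusted p = 0.222). Their common partner Suclg1 had the smallest positive estimate of the cycle, 0.18 (SE 0.21).

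The last steps showed smaller differences apart from Mdh1. Fumarase, Fh1, and Mdh2 had S2 over S1 estimates of 0.30 (SE 0.20) and 0.39 (SE 0.21). Mdh1 was at 56.9 CPM in the library labelled WT 1, 63.9 in KO 2, 31.7 in WT 2 and 3.20 in KO 1. A single library, KO 1, set the size of its estimate (2.39, SE 0.61, edgeR adjusted p = 0.0638): between the WT libraries the difference was 0.84 and between the KO libraries 4.29. Got2, its partner in the malate-aspartate shuttle, went the other way, with -0.31 (SE 0.15, edgeR adjusted p = 0.284).

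Pyruvate entry showed subunits of a pair that differed in sign. Mpc1 and Mpc2 together form the carrier that admits pyruvate to mitochondria. Mpc1 was at 568 and 556 CPM in S2 and at 455 and 427 CPM in S1, while Mpc2 was at 303 and 301 CPM in S2 and at 325 and 390 CPM in S1. The estimates of 0.35 (SE 0.19) and -0.24 (SE 0.19) did not pass the test.

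Pyruvate dehydrogenase is built from the E1 subunits Pdha1 and Pdhb, the E2 acetyltransferase Dlat, the E3 enzyme Dld and the E3-binding protein Pdhx. Pdha1, on the X chromosome from 160122209 to 160138413, was at 1505 CPM in the library labelled WT 1, 1649 in KO 2, 932 in WT 2 and 711 in KO 1. The log2 fold change for S2 over S1 was 0.95 (SE 0.23), just outside the threshold (edgeR adjusted p = 0.0555). Dlat was at 515 and 522 CPM in S2 and at 361 and 282 CPM in S1 (0.70, SE 0.20, edgeR adjusted p = 0.0888). Pdhb had 785 and 847 CPM in S2 and 618 and 503 CPM in S1 (0.55, SE 0.21, edgeR adjusted p = 0.19). Pdhx, the scaffold subunit, was similar in all libraries, from 93.2 to 119 CPM (0.19, SE 0.16). Transcripts of Pdha1, Pdhb, Dlat and Pdhx summed to 1549 TPM in the library labelled WT 1, 1700 in KO 2, 1177 in WT 2 and 775 in KO 1. Of Dlat, 38.9% to 45.9% of TPM was on the processed transcript Dlat-202, not annotated as protein-coding.

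Pyruvate carboxylase, Pcx, makes oxaloacetate from pyruvate and so feeds the cycle and glyceride synthesis. It was at 647 CPM in the library labelled WT 1, 635 in KO 2, 432 in WT 2 and 320 in KO 1, with a log2 fold change of 0.78 for S2 over S1 (SE 0.20, edgeR adjusted p = 0.0692). The gene is transcribed from separate start sites 83874 bases apart on chromosome 19. The 250 bases before each RefSeq start are shown because the transcripts from the 2 starts differed in how they varied between libraries. They run 5′ to 3′ on the plus strand of GRCm38.p6, with CG dinucleotides in capitals.

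Upstream start, chr19:4510222-4510471: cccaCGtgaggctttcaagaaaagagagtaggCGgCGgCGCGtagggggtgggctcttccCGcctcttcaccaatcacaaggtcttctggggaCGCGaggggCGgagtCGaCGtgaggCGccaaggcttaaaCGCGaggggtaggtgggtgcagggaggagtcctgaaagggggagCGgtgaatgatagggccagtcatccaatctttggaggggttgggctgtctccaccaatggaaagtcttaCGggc
Downstream start, chr19:4594069-4594318: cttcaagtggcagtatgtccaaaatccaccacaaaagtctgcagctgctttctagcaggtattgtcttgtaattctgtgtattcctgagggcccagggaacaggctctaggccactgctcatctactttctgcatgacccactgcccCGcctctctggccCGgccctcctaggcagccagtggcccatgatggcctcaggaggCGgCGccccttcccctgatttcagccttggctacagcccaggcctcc

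The upstream window held 16 CG dinucleotides and the downstream window 4, at similar GC content (60.8% and 58.0%). Over the 250 bases before 32851 RefSeq starts of the mouse genome the median was 6, and over the 39 starts of the 29 genes with a RefSeq entry it was 18. The 3 transcripts that begin within 100 bases of the upstream start summed to 105.9 TPM in the library labelled WT 1, 134 in KO 2, 70.02 in WT 2 and 20.3 in KO 1. The downstream transcript, Pcx-202, stood at 54.95, 28.1, 45.9 and 51.5 TPM in the same order. Upstream transcripts thus carried 65.7% of Pcx in the library labelled WT 1, 82.6% in KO 2, 60.2% in WT 2 and 28.2% in KO 1. The share was higher in both S2 libraries, and its widest gap was between the KO libraries. Transcript levels of one gene are estimates that share reads, and no test was run on them.

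**Figure D4:**
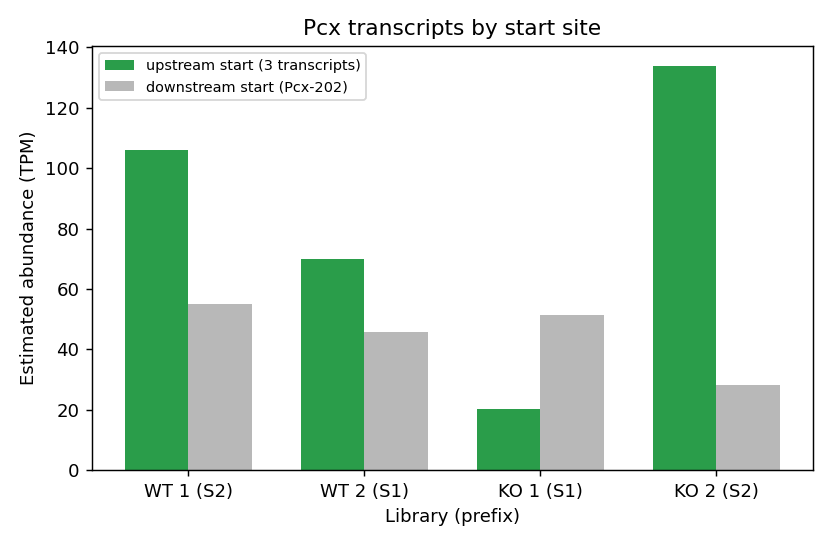
Estimated abundance of Pcx transcripts in TPM, by library, from the upstream start (3 transcripts, green) and the downstream start (Pcx-202, grey), with 1 bar per library and no error. The upstream bar is the higher in 3 libraries and falls below the downstream bar in KO 1 (20.3 against 51.5 TPM).

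Ogdh also differed in its transcripts. Ogdh-201 was at 556 TPM in the library labelled WT 1, 580 in KO 2, 476 in WT 2 and 366 in KO 1, while Ogdh-204 was at 241, 265, 75.3 and 11.8 TPM in that order. The share of Ogdh-204 was therefore 29.4% and 30.5% of the gene in the S2 libraries, against 13.2% and 3.02% in WT 2 and KO 1. These transcripts differ in the first exon and at the end of the last exon.

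The kinases held the largest of the 3 called changes. Pdk4, the isoform induced by fasting and fatty acids in many tissues, lies on chromosome 6 from 5483351 to 5496309. It was at 1566 CPM in the library labelled WT 1, 2545 in KO 2, 887 in WT 2 and 872 in KO 1. The S1 libraries were nearly equal, and the S2 libraries were both higher and unlike each other. Pdk4 rose from S1 to S2 by 1.18 on the log2 scale (SE 0.25, edgeR adjusted p = 0.0349), or 2.27-fold. By genotype it averaged 1226 ± 480 CPM in WT and 1709 ± 1183 CPM in KO (SD, n = 2 each), with a log2 fold change of 0.48 (SE 0.56, edgeR adjusted p = 0.9999). The difference KO minus WT was -0.02 within S1 and 0.70 within S2.

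Pdk1, known as a target of hypoxia signalling, was at 81.4 CPM in the library labelled WT 1, 102 in KO 2, 58.0 in WT 2 and 50.9 in KO 1. It lies on chromosome 2 from 71873224 to 71903858. Pdk1 rose from S1 to S2 by 0.74 on the log2 scale (SE 0.17, edgeR adjusted p = 0.0455). Pdk2, the widely expressed isoform, was at 287 and 330 CPM in S2 and at 262 and 268 CPM in S1 (0.22, SE 0.18, edgeR adjusted p = 0.534). Pdk3 had a negative estimate of -0.33 (SE 0.33).

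Per length, Pdk4 made up most of the kinase transcripts in every library: 72.8% in the library labelled WT 1, 78.8% in KO 2, 65.1% in WT 2 and 65.4% in KO 1. Pdk2 made up 18.7% to 31.4%. The kinases together held 638 TPM in the library labelled WT 1, 974 in KO 2, 445 in WT 2 and 363 in KO 1. Set against the summed subunits of the complex, kinase transcripts stood at 0.412, 0.573, 0.378 and 0.469 in that order. This ratio was lowest in WT 2 and highest in KO 2. Both KO values lay above both WT values, an order that 13.2% of all tested genes showed in CPM. With kinases and subunits both higher in S2, the ratio varied less between libraries than either sum, and it was not tested.

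The phosphatases were far less abundant. Pdp1, the calcium-stimulated catalytic subunit, was at 7.33 CPM in the library labelled WT 1, 7.71 in KO 2, 5.77 in WT 2 and 5.71 in KO 1 (S2 over S1 0.39, SE 0.20, edgeR adjusted p = 0.306). Pdp2, the insulin-linked form, was at 57.8 and 57.7 CPM in S2 and at 49.5 and 43.6 CPM in S1 (0.31, SE 0.15, edgeR adjusted p = 0.28). The regulator Pdpr, described above for genotype, also had a positive S2 over S1 estimate of 0.54 (SE 0.15, edgeR adjusted p = 0.0789). Together Pdp1 and Pdp2 held 8.81 to 13.6 TPM per library, against 363 to 974 TPM of kinases.

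Other genes of the pathway, 41 in all, had been listed beside the 31: the remaining cycle and complex II genes, lipoyl cofactor enzymes, enzymes of entry and exit, and carriers. For KO against WT 0 of 41 were called by edgeR (0.78% of all genes), with 1 higher and 1 lower at an unadjusted p under 0.05 (4.02% of all genes) and a median of -0.01. Slc25a12, an aspartate-glutamate carrier of excitable tissues and muscle, was at 12.9 and 13.0 CPM in the KO libraries, against 2.99 and 5.12 CPM in WT. Its log2 fold change was 1.67 (SE 0.29, edgeR adjusted p = 0.129), and with the prefix block it passed (edgeR adjusted p = 0.00137). It was called in 5 of 15 alternatives: that block, the replicate block (0.0256), DESeq2 (0.000584), no filter (3.67e-08) and without WT 2 (0.00349), each as an adjusted p. Slc25a10, the dicarboxylate carrier (-0.82, SE 0.29), and Got1, the cytosolic aspartate aminotransferase (0.29, SE 0.21), did not pass. Without a filter on low counts Slc25a10 did (edgeR adjusted p = 0.0329). The skeletal muscle markers given above were high in the same KO libraries, and their part in the Slc25a12 difference was not tested.

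For S2 against S1 the other pathway genes had a median of 0.12, with 1 of 41 called higher by edgeR (1.63% of all genes). At an unadjusted p under 0.05, 11 were higher (10.2% of all genes) and 2 lower. Both S2 libraries lay above both S1 libraries for 22 of 41 (27.3% of all genes) and below for 8 (25.9%). The called gene was Slc16a1, a carrier of lactate and pyruvate across the cell membrane, with 448 and 427 CPM in S2 and 252 and 238 CPM in S1 (0.84, SE 0.18, adjusted p = 0.0389). By sublist, enzymes of entry and exit had a median of 0.37, cycle and complex II genes 0.11, lipoyl cofactor enzymes -0.09 and carriers -0.18.

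Several measures moved with the prefix. Beside 3.22% of all genes called for the prefix in either direction, 3 of 8 macrophage markers were called, all higher in S2 (median of the list 0.57). Of 6 tested white adipocyte markers 4 were called, with Lep, Mest and Npr3 higher in S2 and Slc7a10 lower (median 0.77). Of 5 endothelial markers 2 were called in opposite directions, Cldn5 higher (1.80) and Kdr lower (-0.83) in S2, and the median was -0.54. Of 10 brown adipocyte markers 1, Elovl3, was called, lower in S2 (median -0.14). The S2 over S1 change also ran with level and length over genes: its Spearman correlation was 0.24 with mean log2 CPM and 0.12 with transcript length over 15643 genes, which share the same libraries. With length it was 0.37 over the 31 genes and 0.42 over the 362 genes above a mean log2 CPM of 8. Among those 362 genes the median change was 0.17, and among the 20 of the 31 genes in that range 0.51. The part of cell makeup, level and length in the prefix difference was not tested.

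Promoter letters were searched on both strands in 300-base windows (250 before and 50 after each RefSeq start). The estrogen-related receptor element TCAAGGTCA was in 0.466% of all genes with an entry and in none of the 29 members with one. The C/EBP-ATF response element TGATGNAAN was in 4.5% of genes and in none of the 29. The NRF1 core GCGCATGCG was in 1.95% of genes and in 1 of the 29, Ogdh, at chr11:6292543-6292551. There it began 15 and 36 bases before RefSeq starts of Ogdh. The first exons of Ogdh-201 and Ogdh-204, at 6291633-6291693 and 6291666-6291769, end before this match. The match therefore lay downstream of the starts of those transcripts. Pdp1 and Idh3a had no entry in the table.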

How the data were processed

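The authors deposited, per library, estimated counts and TPM per transcript from kallisto 0.45.0 on mm10, per the file headers and the submitters' processing notes. Libraries were stranded mRNA, per the labels. Transcripts were mapped to GENCODE genes (97.7% matched; 0.992% to 1.04% of counts did not), summed per gene and rounded. Deposited TPM were summed per gene. Genes passing filterByExpr (minimum count 10, total 15) were tested with edgeR 4.0.16 (TMM, quasi-likelihood, Benjamini-Hochberg over 15643 genes, threshold 0.05, R 4.3.3) for genotype alone and for prefix beside genotype. Differences between single libraries used log2 CPM with a prior count of 2. DESeq2 1.42.0 and limma 3.58.1 gave alternatives. The procedure was tested on simulated data. For the genotype fit those data held no prefix difference, so they do not show how it performs with one. Promoters came from RefSeq (GRCm38.p6). Members and lists were chosen with earlier results of these data known. Every library value is given for members called, or with an unadjusted p under 0.05, in either comparison and for all kinases and phosphatases. Some items of the pathway list are not reported here.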

Additional observations from a re-analysis of the deposited data

How the results depend on the processing

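Limits: with 2 libraries per group the errors are wide, and genes below 10 CPM such as Pdk3 and Pdp1 rest on few reads. The library labelled WT 1 had little Atf4. Of 141450 deposited transcripts 138191 were matched to a gene, so that low sums such as those of Mdh1 and Got2 may be incomplete. Of the alternatives run, the prefix block called 1 member for genotype, Pdpr, and the others 0; the median of members, -0.06, ran from -0.38 to 0.20 when 1 library was left out, where a lone library was assumed to vary like the others. Genes called for genotype numbered 122, and 457 without a filter, 210 by DESeq2, 320 with the prefix block and 78 to 205 with 1 library left out. The replicate block, by the number in the titles, gave 168 genes, 0 members and a median of -0.07. Deviations from the genotype mean correlated at -0.38 for same-numbered libraries and at 0.38 for same-prefix libraries. With 2 libraries per genotype these values mirror each other by construction, so they cannot decide whether the numbers pair the libraries. The crossed pairing is the prefix block. By limma on log2(TPM + 1) the genotype estimates of Pdk1, Pdk2 and Pdp1 turned to -0.071, -0.024 and -0.042, and on log2(TPM + 0.1) to -0.082, -0.0243 and -0.0665. On the latter scale the median genotype change of all genes was itself -0.11 and that of members -0.19. With 1 library left out, genotype estimates ran from -0.46 to 0.54 for Pdk1, -0.036 to 0.27 for Pdk2, -0.49 to 1.05 for Pdk4, -0.20 to 0.24 for Pdp1, -0.30 to 0.11 for Pdp2, -0.99 to -0.40 for Pdpr, 0.20 to 0.61 for Got2, -0.74 to -0.29 for Pdk3, -3.79 to 0.53 for Mdh1 and -0.76 to 0.23 for Pcx. For the prefix, 3 members were called, among 504 of all genes. With DESeq2 size factors 5 members were called, among 307 genes higher in S2 and 326 lower. Without a filter 12 members were called, among 1446 genes. With at least 1 CPM in 2 libraries 0 members were called (2.69% of all genes), and by DESeq2 10 (3.23%). By limma on log2(TPM + 1) 10 members were called, among 314 genes higher and 294 lower. On log2(TPM + 0.1) 11 were called, among 384 genes higher and 312 lower. With the prefix as sole term 0 members were called, and 1 gene of all. Pdk4 was called in 8 of 14 alternatives, Pdk1 in 7 and Suclg2 in 6, and the members' prefix median stayed between 0.37 and 0.50 in all 14. The cause of these differences was not tested.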
